A study of Mus musculus with 24 samples.

Results

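A set of 10 genes that set up and maintain the fat cell were followed through 24 libraries of whole mouse visceral fat. They are the 3 PPAR receptors Pparg, Ppara and Ppard, their partner Rxra, the factors Cebpa, Cebpb, Cebpd, Klf15 and Ebf2, and the corepressor Ncor1. Members were taken by symbol from the deposited table of raw counts, which holds 27179 genes. All 10 were found and all 10 passed the filter on low counts, as did 17824 genes in all.

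The tissue was visceral perigonadal fat of mice aged 27 to 33 weeks, in 6 groups of 4 libraries. Controls carried the Foxp3cre allele alone, the groups called PpargKO here carried PpargFoxp3cre, and the groups called TbetKO carried TbetFoxp3cre, each in females and in males. Every group therefore carries Cre driven by Foxp3, a gene that marks regulatory T cells, and the deletion is aimed at those cells and not at adipocytes. Tbx21 is the gene of T-bet, a transcription factor of type 1 lymphocytes. Within every group, replicates 1 and 3 belong to batch 1 and replicates 2 and 4 to batch 2, by the titles. For control female replicate 1 the source name gives another sample number and batch 2, and the title was followed. Whether each library is a different mouse is not stated in the labels, and p-values then rest on variation among libraries, which may be technical.

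PPARγ is the nuclear receptor without which fat cells do not form, and it keeps lipid storage genes on in mature adipocytes. It binds DNA as a pair with an RXR receptor, and without a ligand such pairs recruit corepressors such as NCoR1. In a forming adipocyte the early factors C/EBPβ and C/EBPδ turn on Pparg and Cebpa, whose products then maintain each other. KLF15 is a glucocorticoid-induced factor that acts on Pparg, EBF2 marks committed preadipocytes and brown fat, and PPARα and PPARδ drive fatty acid oxidation.

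Levels are in CPM, a gene's counts as a share of its library's total, after TMM scaling of the libraries to one another. A level per length divides CPM by the kilobases of merged exons, and genes were compared with each other only on that scale. Log2 fold changes come from edgeR's quasi-likelihood test over all 24 libraries with batch as a term. They are given with a standard error (SE) or a 95% interval. A gene was called where its Benjamini-Hochberg adjusted p over all 17824 genes was under 0.05.

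Library totals ran from 8345575 to 31022845 counts. All 8 markers of mature adipocytes were detected in every library. Their summed level ran from 2426 to 22549 CPM, and the lowest sum was that of control female replicate 1. That library also had the highest sum of 8 ductal and glandular epithelium markers, 1056 CPM, against a median of 51.0 CPM over all libraries. Tbx21 ranged from 0.0751 to 2.65 CPM and Foxp3 from 0.0694 to 1.51 CPM. Pparg is made by cells outside the Foxp3 lineage too, so none of these bulk levels checks the genotype. In whole tissue, fewer cells of a type and less RNA per cell cannot be told apart.

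Cebpa stood highest of the 10 per length, at 244 ± 81.5 CPM per kilobase (SD, n = 24 libraries). It ranked first in 24 of 24 libraries. Pparg followed at 75.9 ± 21.2 and ranked second in 22 of 24. In control female replicate 1 it lay below Cebpb and Klf15, and in TbetKO female replicate 1 below Cebpb. Rxra at 36.4 ± 7.86 and Cebpb at 35.6 ± 16.4 could not be ordered, since Rxra was above Cebpb in 11 of 24 libraries. Klf15 came next at 23.9 ± 7.35, below Cebpb in 19 of 24 libraries, and then Ncor1 at 14.6 ± 4.52, below Klf15 in 21 of 24. The low end held Cebpd at 6.11 ± 2.03, Ppard at 5.05 ± 0.607, Ppara at 3.32 ± 1.67 and Ebf2 at 2.67 ± 1.86. Their ranges overlapped, with Cebpd above Ppard in 16 of 24 libraries. Of the PPAR receptors, Pparg was thus the most abundant per length in this tissue, and Ppara was below Ppard in 20 of 24 libraries.

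The counts are per gene, so transcripts from different starts of Pparg or Rxra are merged. RefSeq promoter windows on GRCm38.p6 were found for 8 of the 10 genes, with 12 starts. The windows of 3 genes, Pparg, Rxra and Cebpa, are shown, as those of the receptor, its partner and the factor that maintains the receptor. Each is the 250 bases before a start, on the plus strand, and none of them overlaps a GENCODE exon. The Pparg window (chr6:115421816-115422065) precedes the start of the fat-enriched form PPARγ2. The Rxra window (chr2:27709042-27709291) precedes the downstream of 2 starts, and the Cebpa window (chr7:35119043-35119292) its single start. Capitals mark matches, on either strand, to the C/EBP core TTGCNNAA, the nuclear receptor half-site AGGTCA and the TATA box TATAAA, which do not overlap one another here.

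Pparg: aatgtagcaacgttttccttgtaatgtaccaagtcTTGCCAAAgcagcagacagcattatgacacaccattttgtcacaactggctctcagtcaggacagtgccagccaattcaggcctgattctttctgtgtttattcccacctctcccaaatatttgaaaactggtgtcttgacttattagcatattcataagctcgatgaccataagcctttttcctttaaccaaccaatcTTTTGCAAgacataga

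Rxra: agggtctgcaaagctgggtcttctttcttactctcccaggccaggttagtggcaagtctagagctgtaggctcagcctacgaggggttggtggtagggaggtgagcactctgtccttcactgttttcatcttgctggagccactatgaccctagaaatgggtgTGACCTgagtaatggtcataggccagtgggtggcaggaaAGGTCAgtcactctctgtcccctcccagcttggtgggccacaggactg

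Cebpa: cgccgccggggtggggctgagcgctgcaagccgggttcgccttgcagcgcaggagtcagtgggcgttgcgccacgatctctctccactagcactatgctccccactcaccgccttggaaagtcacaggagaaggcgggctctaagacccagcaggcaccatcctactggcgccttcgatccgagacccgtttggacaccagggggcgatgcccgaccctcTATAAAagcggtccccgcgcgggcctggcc

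The Pparg window held 2 matches to the C/EBP core and none to the other motifs. The other 2 Pparg windows of the table, not shown, held 0 matches to the core. Each of them held 1 half-site match, and 1 of them also held 1 TATA box match. Of 32851 windows of 250 bases in the table, 9.56% held at least 1 match to the C/EBP core. The Rxra window held 2 half-site matches, a motif present in 14% of windows, and the other Rxra window held 0. The Cebpa window held 1 TATA box match, present in 12.4% of windows. A match is a description of the letters, not a bound site.

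No member was called in either knockout, in either sex. Background shares give the scale. In PpargKO females against control females 0.0168% of all genes were called, in PpargKO males 0%, in TbetKO females 1.22% and in TbetKO males 0.00561%. DESeq2 and limma voom also called 0 of 10 members in each of these 4 comparisons. At an unadjusted p under 0.05 there was 1 member in PpargKO females, against 11.9% of all genes. There were 0 in the other 3 comparisons, against 2.55% in PpargKO males, 17.3% in TbetKO females and 4.38% in TbetKO males. The groups overlapped for all 10 members in all 4 comparisons. Over all genes they did not overlap for 2.44% in PpargKO females, 1.52% in PpargKO males, 4.97% in TbetKO females and 1.51% in TbetKO males.

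**Figure D1:**
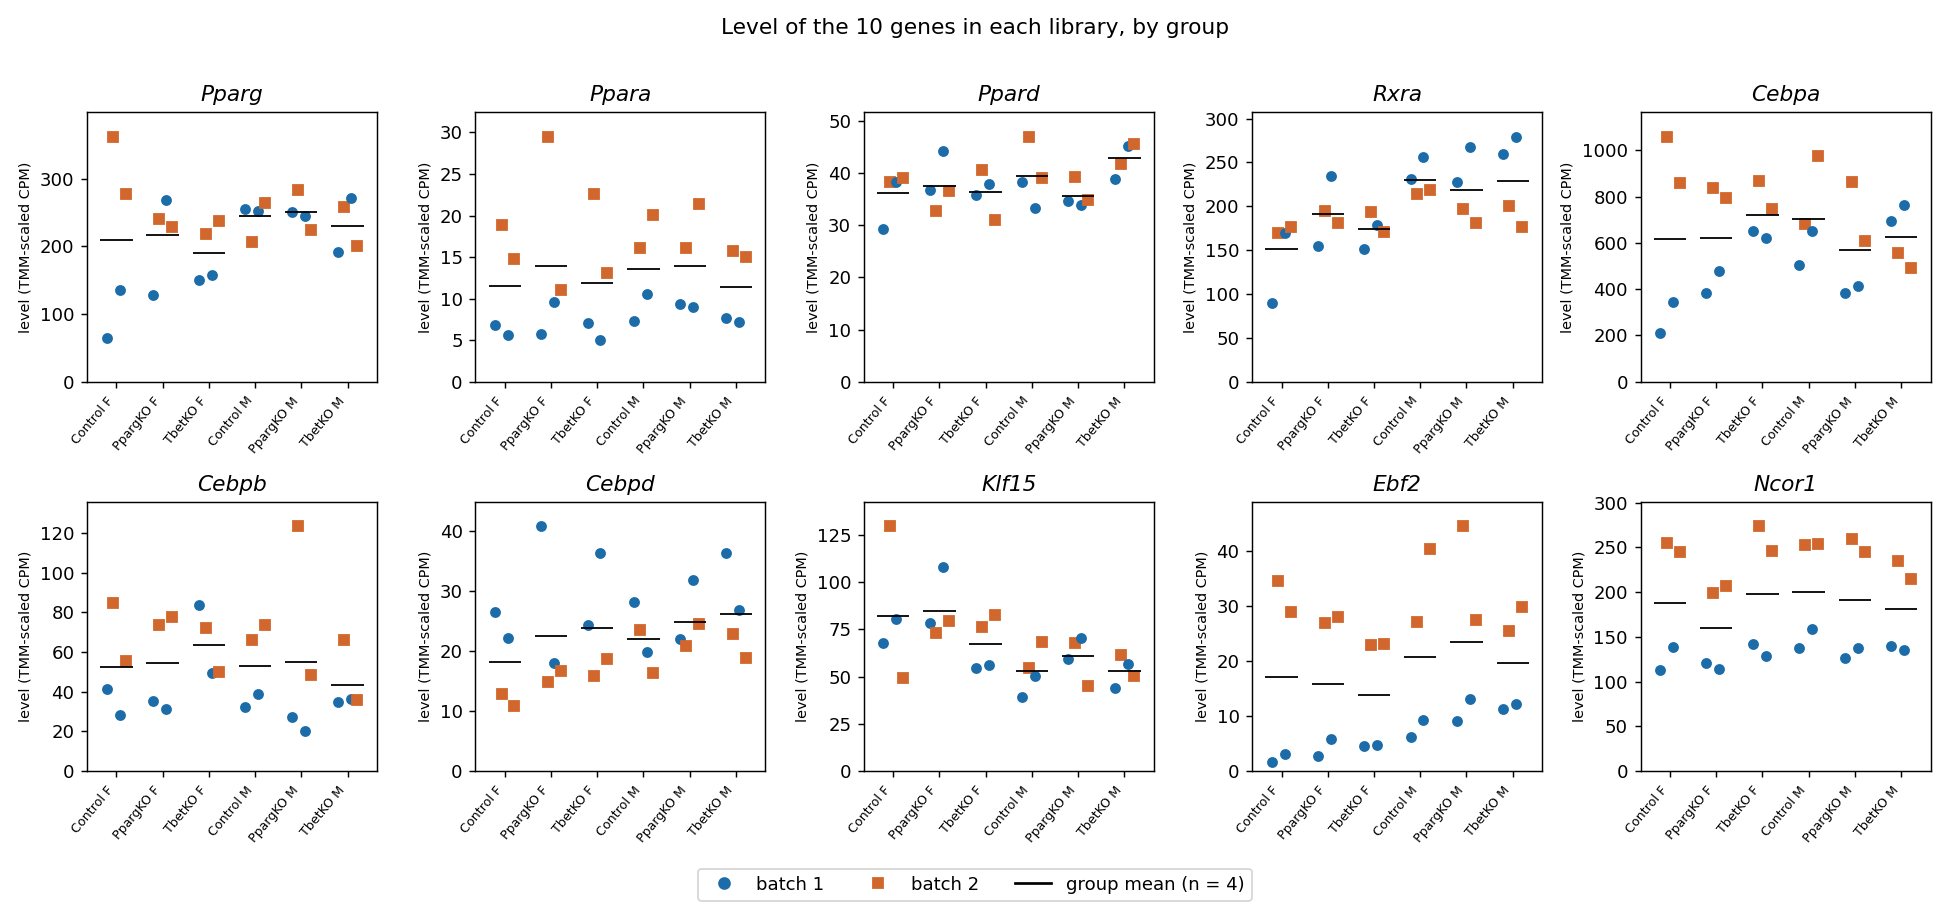
Level of each of the 10 genes (vertical axis, TMM-scaled CPM, from 0) in each of the 24 libraries, by group (horizontal axis: genotype, F female, M male). Circles are batch 1, squares batch 2 and bars group means of 4 libraries. The Ppara, Ebf2 and Ncor1 batches separate completely, while the knockout and control points of each sex overlap for all 10 genes.

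Pparg, the receptor whose gene is deleted in regulatory T cells in one knockout, was measured in control females at 64.8, 362, 136 and 278 CPM in replicates 1 to 4. PpargKO females had 129, 241, 269 and 229 CPM, and TbetKO females 151, 218, 158 and 238 CPM. Control females thus spanned both knockouts. The log2 fold change against controls was 0.13 in PpargKO females (95% interval -0.53 to 0.79, edgeR adjusted p = 0.91) and -0.07 in TbetKO females (-0.73 to 0.58, adjusted p = 0.936). Males were tighter, with 255, 206, 253 and 264 CPM in controls. PpargKO males had 251, 284, 245 and 225 CPM, and TbetKO males 192, 258, 272 and 201 CPM. All 3 male groups lay in one band, with log2 fold changes of 0.03 (-0.62 to 0.68) and -0.09 (-0.74 to 0.56).

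The sign for Pparg in females depended on the batch. In batch 1 the PpargKO minus control difference was 0.98 on the log2 scale, and in batch 2 it was -0.43. For TbetKO females the same values were 0.71 and -0.48. The mature adipocyte sum of control females was 2426 and 5402 CPM in batch 1 and 16013 and 14003 CPM in batch 2, so the low Pparg libraries were also those with a low adipocyte sum. The part of the adipocyte sum in these differences was not tested.

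Cebpa, which maintains Pparg and insulin sensitivity in fat cells, showed the same split. Its control female levels were 209, 1059.5, 344 and 862 CPM. TbetKO females had 651, 869, 621 and 746 CPM, inside the control range. The difference was 1.24 in batch 1 and -0.25 in batch 2, and 0.38 in the fit over both (95% interval -0.27 to 1.02, edgeR adjusted p = 0.571). With batch 1 alone Cebpa was called (1.21, edgeR adjusted p = 0.0341), the only knockout comparison of a member called under any alternative. In PpargKO females it was at 384, 836, 479 and 794 CPM, again within the control range.

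Of the oxidative receptors, Ppara had control female levels of 6.85, 18.9, 5.63 and 14.7 CPM. PpargKO females had 5.69, 29.5, 9.61 and 11.1 CPM, with the highest Ppara value of all libraries in replicate 2. The log2 fold change was 0.28 (SE 0.25). TbetKO females, at 7.02, 22.6, 5.05 and 13 CPM, gave 0.02 (SE 0.26). Ppard, expressed in most tissues, was the steadiest member, between 29.3 and 46.9 CPM in all 24 libraries. Its 4 knockout log2 fold changes lay between -0.14 and 0.13, and the interval for PpargKO females spanned -0.19 to 0.30. TbetKO males, at 38.8, 41.7, 45.2 and 45.6 CPM, overlapped PpargKO males, at 34.6, 39.3, 33.8 and 34.8 CPM.

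Rxra, the shared partner of the PPARs, was at 89.8, 169, 170 and 177 CPM in control females. PpargKO females had 155, 194, 234 and 181 CPM and TbetKO females 152, 194, 179 and 171 CPM. Control female replicate 1 lay far below the rest. The log2 fold changes were 0.33 (SE 0.19, edgeR adjusted p = 0.513) and 0.19 (SE 0.19, adjusted p = 0.646). In males the values against controls were -0.08 and -0.01, each with an SE of 0.19.

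Ncor1, the corepressor that holds unliganded receptors inactive, gave the only member with an unadjusted p under 0.05 against controls. Control females had 113, 255, 139 and 245 CPM and PpargKO females 121, 199, 114 and 207 CPM, so that the groups overlapped. Within batch 2 both knockout libraries were below both controls. The log2 fold change was -0.20 (95% interval -0.38 to -0.02, edgeR adjusted p = 0.383). In TbetKO females, at 143, 274, 128 and 246 CPM, it was 0.08 (-0.10 to 0.26).

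The early factors varied widely between libraries of 1 group. Cebpb, an immediate response factor of adipogenesis and of inflammation, was at 41.5, 84.7, 28.2 and 55.3 CPM in control females. In TbetKO females it was at 83.8, 72.0, 49.3 and 49.8 CPM, a log2 fold change of 0.46 (95% interval -0.25 to 1.17). In PpargKO males it ran from 20.4 to 124 CPM. Cebpd was at 26.6, 12.9, 22.2 and 10.9 CPM in control females and at 24.3, 15.9, 36.3 and 18.7 CPM in TbetKO females (0.42, 95% interval -0.08 to 0.91, edgeR adjusted p = 0.378). The groups overlapped for both genes.

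Klf15 in control females was at 67.7, 130, 80.6 and 49.5 CPM. The knockouts lay inside that range, at 78.1, 73.1, 108 and 79.3 CPM in PpargKO females and at 54.5, 76.0, 56.0 and 82.7 CPM in TbetKO females. Ebf2 was at 1.68, 34.7, 3.02 and 29.0 CPM in control females. It was at 2.78, 26.9, 5.79 and 28.0 CPM in PpargKO females and at 4.54, 23.0, 4.72 and 23.1 CPM in TbetKO females. In batch 2 all knockout libraries lay below both controls. The batch 1 and batch 2 differences were 0.81 and -0.21 for PpargKO and 1.01 and -0.46 for TbetKO on the log2 scale. The fits over both batches were 0.14 and 0.04, each with an SE of 0.37.

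Opposite signs in the batches were found for 6 of 10 members in PpargKO females and 6 in TbetKO females. In males they were found for 4 in PpargKO and 5 in TbetKO. The share over all genes was not counted, so these counts cannot be read as particular to the members. Over the 10 members the fitted values ran from -0.20 to 0.33 in PpargKO females and from -0.29 to 0.46 in TbetKO females. Their medians were 0.12 and 0.06, beside -0.02 and -0.04 over all genes. In males the medians were -0.02 for PpargKO and -0.03 for TbetKO, beside -0.005 and -0.008 over all genes. Both knockouts were set against the same control libraries, so their values are not independent. The highest upper bound among the members was 1.17, that of Cebpb in TbetKO females, so changes of that size lie within what 4 libraries a group allow.

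**Figure D2:**
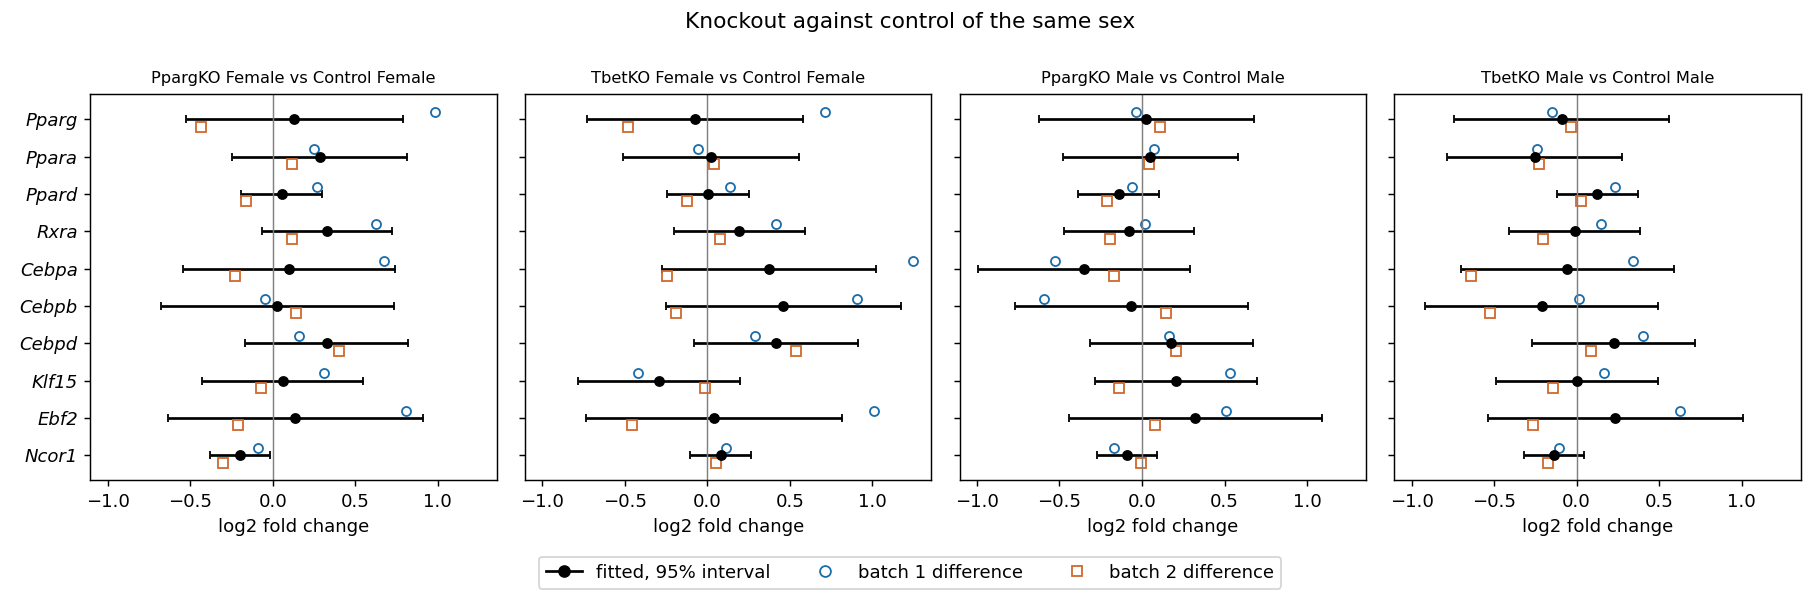
Log2 fold change (horizontal axis) of each gene in the 4 knockout comparisons. Black points and bars are fitted values with 95% intervals, open circles the batch 1 and open squares the batch 2 differences of mean log2 CPM. In females the batches lie on opposite sides of 0 for Pparg, Ppard, Cebpa, Cebpb and Ebf2 in both knockouts.

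The knockouts were also compared with each other directly, and no member was called. In TbetKO against PpargKO females 0% of all genes were called and 4.80% had an unadjusted p under 0.05. In males the shares were 0% and 4.24%. DESeq2 called 0 of 10 members in both. Ncor1 was the 1 member past the unadjusted threshold in females (log2 fold change 0.28, SE 0.09, edgeR adjusted p = 0.654). Ppard was the 1 member in males (0.27, SE 0.12, adjusted p = 1).

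The difference of a knockout's effect between males and females was tested for each gene. No member was called for PpargKO, where 0% of all genes were, nor for TbetKO, where 0.00561% were. At an unadjusted p under 0.05 there were 0 members, against 6.14% of all genes for PpargKO and 11.5% for TbetKO. DESeq2 called 0 of 10 members in both. For Pparg itself the differences were -0.10 (95% interval -1.03 to 0.82) and -0.02 (-0.94 to 0.91). The intervals leave room for differences in either direction.

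The genes that the receptors control were likewise mostly uncalled in the knockouts. Of 25 adipocyte targets of PPARγ, all measured, 0 were called in each of the 4 comparisons. Their median log2 fold change was 0.21 in PpargKO females and 0.27 in TbetKO females, and -0.28 and -0.16 in males, beside the medians over all genes given above. Of 21 measured fatty acid oxidation targets of PPARα and PPARδ, from a list of 23, 1 was called. Their median log2 fold change was 0.06 in PpargKO females and 0.05 in TbetKO females. In males it was -0.27 in both knockouts, where 1 of 21 targets was above 0, against the same controls. The called gene was Cpt1a, which encodes the enzyme that admits fatty acids to mitochondria. It was at 111 ± 32.3 CPM in TbetKO females and at 65.1 ± 11.4 CPM in control females (SD, n = 4). The log2 fold change was 0.74 (SE 0.14, edgeR adjusted p = 0.0146). The call held in 16 of 21 alternatives, and was lost without control female replicate 4 (0.70, adjusted p = 0.0589) or TbetKO female replicate 1 (0.75, adjusted p = 0.0513).

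Among 18 other factors that promote adipogenesis, Mlxipl fell in TbetKO females and the other 17 were not called. It encodes ChREBP, which turns on fatty acid synthesis in response to glucose. Its level was 110 ± 61.1 CPM, against 275 ± 91.7 CPM in control females (log2 fold change -1.36, SE 0.32, edgeR adjusted p = 0.0413). The call held in 10 of 21 alternatives and was lost on leaving out control female replicate 2, 3 or 4 or TbetKO female replicate 1, 3 or 4, with values from -1.46 to -1.13. None of 19 receptor partners and coregulators and none of 12 restrainers of adipogenesis was called in any of the 4 comparisons. The same was true of 12 glucocorticoid-responsive genes and of the 8 measured of 10 inflammatory genes induced through C/EBPβ and C/EBPδ.

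Between the sexes, 1 member was called. The fat was perigonadal, so sex and the gonad that the fat lies by cannot be told apart here. In control males against control females 27.2% of all genes were called, and of the 10 members Rxra alone. Rxra was at 231, 214, 256 and 218 CPM in control males and at 89.8, 169, 170 and 177 CPM in control females, so that the lowest male lay above the highest female. The groups did not overlap for 1 of 10 members here, against 15.7% of all genes. It rose by 0.59 on the log2 scale in males (SE 0.19, edgeR adjusted p = 0.0269). The difference was 0.98 in batch 1 and 0.32 in batch 2.

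The Rxra call held in 15 of 21 alternatives and was lost on leaving out any of 3 single libraries. Without control female replicate 1 the difference was 0.39 (edgeR adjusted p = 0.0601). It was 0.61 (adjusted p = 0.0539) without control male replicate 1 and 0.54 (adjusted p = 0.0804) without control male replicate 3. The mature adipocyte sum moved with Rxra. It ran from 2426 to 16013 CPM in control females and from 16365 to 22549 CPM in control males, without overlap. Endothelial markers, 5 of 5 detected, also did not overlap, at 319 to 934 CPM and 1097 to 1778 CPM. Macrophage markers, 8 of 8 detected, did not overlap either, at 329 to 1021 CPM and 1247 to 1739 CPM, and Rxra had r = 0.62 with their sum over 24 libraries, or 0.32 without control female replicate 1. The part of these sums in the Rxra difference was not tested.

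In the knockouts Rxra males and females overlapped. In TbetKO they did so for all 10 members, while 12.4% of all genes did not overlap. PpargKO males had 227, 197, 267 and 181 CPM, a log2 difference from PpargKO females of 0.18 (SE 0.19). TbetKO males had 260, 201, 279 and 176 CPM, a difference of 0.39 (SE 0.19, edgeR adjusted p = 0.206). In PpargKO 8.77% of all genes differed between sexes and in TbetKO 9.31%, and no member was called in either. DESeq2 called 1 member in PpargKO, Ncor1 (0.23, adjusted p = 0.0203), and 0 in TbetKO. At an unadjusted p under 0.05 there were 2 members in PpargKO, Ebf2 and Ncor1, against 26.5% of all genes, and 1 in TbetKO, Ebf2, against 25.9%.

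Klf15 was the one member with lower values in males in all 3 genotypes and in both batches of each. Control males had 39.2, 54.7, 50.4 and 68.2 CPM, against 67.7, 130, 80.6 and 49.5 CPM in control females. Female replicate 4 lay among the males. The log2 difference was -0.63 (SE 0.24), which missed the threshold in edgeR (adjusted p = 0.0533) and passed it in DESeq2 (-0.63, adjusted p = 0.0321). It also passed without control female replicate 4 (-0.83, edgeR adjusted p = 0.0104) or control male replicate 4 (-0.75, adjusted p = 0.0428). It was not called in 16 of 21 alternatives, and was -0.32 without control female replicate 2 (edgeR adjusted p = 0.266) and -0.21 with limma voom (adjusted p = 0.588). In PpargKO the males, at 59.1, 68.0, 70.4 and 45.3 CPM, were all below the females, at 78.1, 73.1, 108 and 79.3 CPM, the 1 member of 10 without overlap there, against 9.06% of all genes (-0.48, SE 0.23, edgeR adjusted p = 0.197). In TbetKO, with males at 44.0, 61.2, 56.9 and 50.1 CPM, the sexes overlapped (-0.33, SE 0.24). Against the sex difference of controls, that of PpargKO differed by 0.15 (SE 0.33) and that of TbetKO by 0.30 (SE 0.33), neither called. The 2 knockouts were not tested against each other in this.

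Klf15 is induced by glucocorticoids, and other genes of that response had higher values in males. Of 12 such genes, 6 were higher and 0 lower in control males than in control females, where 13.6% of all genes were called higher. The counts were 6 and 0 in PpargKO, where 3.59% of all genes were higher, and 2 and 0 in TbetKO, where 3.93% were. Fkbp5, a chaperone partner of the glucocorticoid receptor, rose by 2.12 in controls (SE 0.35, edgeR adjusted p = 0.000398), from 25.3 ± 11.5 to 109 ± 21.2 CPM (SD, n = 4). It rose by 2.57 in PpargKO and by 2.38 in TbetKO. Tsc22d3, which encodes the leucine zipper protein GILZ, rose by 1.0 in controls, by 0.70 in PpargKO and by 0.87 in TbetKO. With control female replicate 1 placed in batch 2, the Tsc22d3 value in controls was 0.63 (adjusted p = 0.0872).

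Ebf2 had higher group means in males in all 3 genotypes, and the difference was not called in any. Control males had 6.20, 27.1, 9.35 and 40.4 CPM. PpargKO males had 9.04, 44.6, 13 and 27.5 CPM, and TbetKO males 11.3, 25.4, 12.3 and 29.8 CPM. Against the females given above, the log2 differences were 0.69 (SE 0.37), 0.87 (SE 0.37) and 0.88 (SE 0.37), with edgeR adjusted p = 0.175, 0.142 and 0.142. Pparg gave 0.33, 0.22 and 0.31, with SEs of 0.32, 0.31 and 0.31, and was not called.

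**Figure D3:**
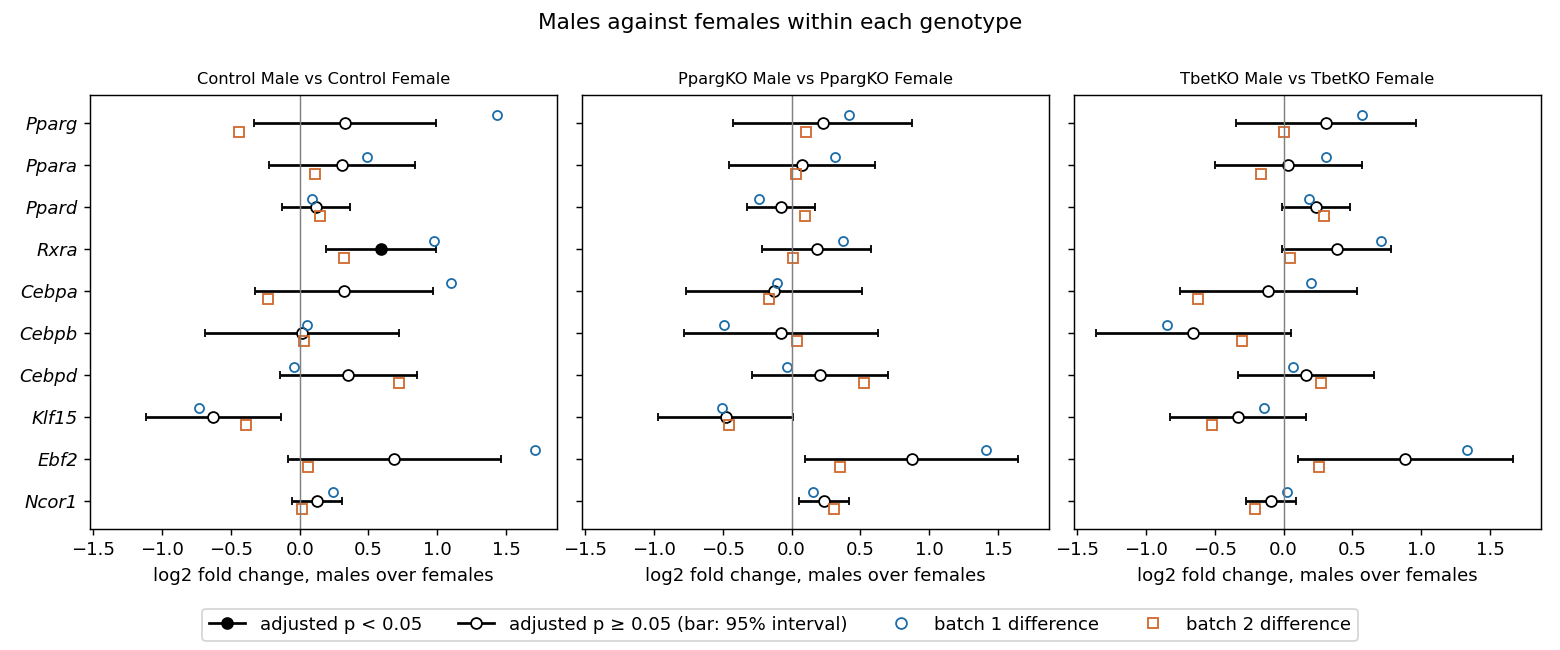
Log2 fold change of males over females (horizontal axis) of each gene within each genotype. Filled points passed an adjusted p under 0.05, bars are 95% intervals, and open circles and squares are the batch 1 and batch 2 differences. Rxra in controls, at 0.59, is the only filled point, and Ebf2 lies farther to the right in batch 1 than in batch 2 in each genotype.

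Whether the sex difference depended on the batch was tested as the male minus female difference in batch 1 minus that in batch 2, over all genotypes. The test was chosen after the within-batch values were seen. It called 1 of the 10 members, Ebf2, against 18.9% of all genes. In batch 1 Ebf2 ran from 1.68 to 5.79 CPM in the 6 female libraries (median 3.78) and from 6.20 to 13 CPM in the 6 males (median 10.3), without overlap, as for 19.5% of all genes. In batch 2 the ranges overlapped, at 23.0 to 34.7 CPM (median 27.4) and 25.4 to 44.6 CPM (median 28.6). The male minus female difference was 1.49 in batch 1 and 0.22 in batch 2 on the log2 scale. The fitted difference between them was 1.21 (SE 0.34, edgeR adjusted p = 0.0217).

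For Rxra the difference between batches was 0.53 (SE 0.19, edgeR adjusted p = 0.0547) and for Pparg 0.85 (SE 0.32, adjusted p = 0.0652). Neither passed with all libraries. Without PpargKO female replicate 3, a batch 1 female with 269 CPM of Pparg, 4 members passed, which were Ebf2, Pparg (1.08), Rxra (0.64) and Cebpd (-0.67). In that fit 3929 of 18231 genes were called. Rxra also passed without control female replicate 3 or TbetKO female replicate 3. Ebf2 passed whichever library was left out. The mature adipocyte sum followed the same pattern. It ran from 2426 to 12817 CPM in batch 1 females and from 15296 to 22549 CPM in batch 1 males. In batch 2 it ran from 14003 to 22062 CPM in females and from 14668 to 21163 CPM in males. Its part in these differences was not tested.

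Of the 25 adipocyte targets of PPARγ, 8 were higher and 0 lower in control males, where 13.6% of all genes were called higher and 27.2% in either direction. The targets had a median log2 difference of 0.76 beside -0.04 over all genes. The mature adipocyte sum, given above, did not overlap between these groups, and its part in the target differences was not tested. Adipoq, Plin1, Plin4, Cidec and Lipe are both targets and markers in that sum, so the sum is not a separate measure. Angptl4, an inhibitor of lipoprotein lipase, rose by 2.58 (SE 0.61, edgeR adjusted p = 0.00507), from 171 ± 131 to 973 ± 456 CPM (SD, n = 4). Aqp7, the glycerol channel of adipocytes, rose by 1.82, and Plin4, a lipid droplet coat protein that is also among the mature adipocyte markers, by 1.87. In batch 2 alone the Angptl4, Aqp7 and Plin4 values were 1.11, 0.67 and 0.68 and were not called. In PpargKO and TbetKO the only target called was Gk, glycerol kinase, which rose by 1.49 and 1.95. The call held in 5 of 21 alternatives in PpargKO and in 17 of 21 in TbetKO, where it was lost without female replicate 2 (1.67) or 4 (1.73). Without the 8 libraries whose epithelium marker sum was above 100 CPM, the Gk values were 0.74 and 1.24 and were not called. This set was chosen after seeing the data, and the highest sum left in was 99.1 CPM.

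Cpt1a rose in males by 1.16 in controls (SE 0.14, edgeR adjusted p = 2.89e-05) and by 0.75 in PpargKO (adjusted p = 0.00294). The control call held in 21 of 21 alternatives and the PpargKO call in 17 of 21. Zfp423, a factor that commits preadipocytes, rose by 1.45 in controls (SE 0.25, edgeR adjusted p = 0.000473), also in 21 of 21 alternatives, and by 0.91 in PpargKO, in 14 of 21. The PpargKO call was lost without female or male replicate 1 or 3, with values from 0.76 to 0.90. Of the 18 factors of that list 3 were higher and 2 lower in control males, where 27.2% of all genes were called in either direction. The lower ones, named here after their values were seen, were Mlxipl (-0.85, edgeR adjusted p = 0.0492) and Zfp516 (-0.72, adjusted p = 0.0496). Of 12 restrainers of adipogenesis, Gata2 fell by 1.53 and Zfp521 fell by 0.77 in control males, and Ddit3 rose by 0.59, in 19, 13 and 19 of 21 alternatives. The share of all genes called there was the same 27.2%, and neither list is read as unusual. The Zfp521 call was lost without control female replicate 3 (-0.47) or control male replicate 1, 3 or 4 (-0.73 to -0.70). Gata2 also fell by 1.41 in PpargKO, in 13 of 21 alternatives, and Sox9, another restrainer, rose by 2.77 in TbetKO, in 9 of 21. Of 19 coregulators, Ncoa1 rose by 0.52 in PpargKO, in 15 of 21 alternatives, and by 0.40 in TbetKO, in 8 of 21. Nrip1 rose by 1.04 in PpargKO, in 11 of 21 alternatives. Of all genes, 27.2% were called between the sexes in controls, 8.77% in PpargKO and 9.31% in TbetKO. Prdm16, a brown fat coregulator, rose by 0.66 in controls, in 14 of 21 alternatives, and by 0.88 in TbetKO, in 18 of 21. The control call of Prdm16 was lost without control female replicate 4 (0.62) or control male replicate 4 (0.49). Of the markers of thermogenic, or brown, adipocytes, Ucp1 and Elovl3 went the other way. They were called lower in males in controls (-6.64, SE 1.79, and -3.27, SE 0.96) and in PpargKO (-8.11, SE 1.94, and -3.65, SE 1.01). Ucp1 was very low in males, at a mean of 0.135 CPM in controls and 0.0664 CPM in PpargKO. In PpargKO females it was at 30.1 ± 57.7 CPM (SD, n = 4), so the SD exceeded the mean. The thermogenic marker sum was 205 CPM in PpargKO female replicate 2 and 5.76 to 20.6 CPM in the others of that group. The list held 5 markers, and those not named are not described here. The summed level of the thermogenic markers overlapped between the sexes in each genotype. Whether the fat of males was more or less brown was not tested. Of the 8 inflammatory genes measured, 3 were higher in control males, beside 13.6% of all genes. Hp, which encodes haptoglobin and is made by fat cells, had the smallest adjusted p of them and rose by 3.05 (SE 0.39, edgeR adjusted p = 4.86e-05), and Ccl2, a chemokine gene, rose by 3.23. The macrophage marker sum did not overlap between control males and females either, and its part was not tested. Hp also rose in PpargKO (2.09) and in TbetKO (1.97), in 19 and 20 of 21 alternatives. Lcn2, of the same list, was called in both (4.81 and 4.94), in 4 and 9 of 21. Cebpb and Cebpd themselves gave 0.02 and 0.36 in controls and were not called.

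A test of any difference among the 6 groups called 25.6% of all genes and none of the 10 members. DESeq2 called 4 members in this test, and limma voom 0. Over all genes the number called in it ran from 1639 to 6787 across alternatives. At an unadjusted p under 0.05 there were 4 members, Rxra, Klf15, Ebf2 and Ncor1, against 39.2% of all genes. Their edgeR adjusted p-values were 0.0975, 0.0817, 0.0997 and 0.0830.

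Between batches, a comparison of 12 with 12 libraries, 6 of the 10 members were called, near the 51.7% of all genes. Ebf2, Ppara, Cebpb, Ncor1 and Cebpa were higher in batch 2, and Cebpd was lower. The labels do not say what a batch is, so preparation and animals cannot be told apart here. Each of the 6 calls held in 31 of 31 alternatives.

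Ebf2 ran from 1.68 to 13 CPM in batch 1 (median 5.99) and from 23.0 to 44.6 CPM in batch 2 (median 27.7). No library of one batch reached the other, which held for 3 of 10 members and 10.9% of all genes. It rose by 2.27 on the log2 scale (SE 0.23, edgeR adjusted p = 5.22e-08). Ppara, at 5.05 to 10.5 CPM and 11.1 to 29.5 CPM, also separated and rose by 1.25 (SE 0.15, adjusted p = 5.94e-07). Ncor1, at 113 to 159 CPM and 199 to 274 CPM, rose by 0.86 (SE 0.05, adjusted p = 3.68e-11).

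Cebpb rose by 0.91 (SE 0.20), Cebpa rose by 0.66 (SE 0.18) and Cebpd fell by 0.64 (SE 0.14), with overlap between the batches for all 3. Cebpb and Cebpd, which act together early in adipogenesis, thus went opposite ways between batches. Pparg (0.39, SE 0.18, edgeR adjusted p = 0.0881), Klf15 (0.15), Ppard (0.06) and Rxra (-0.10) were not called.

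**Figure D4:**
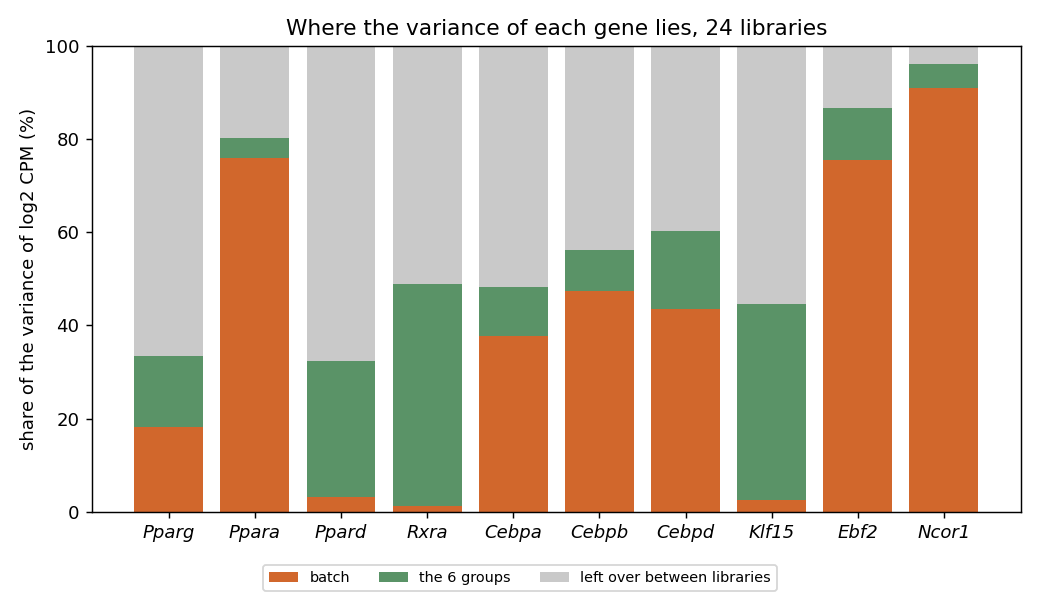
Share of the variance of log2 CPM over 24 libraries (vertical axis, %) that goes with batch, with the 6 groups and with neither, for each gene. Batch takes 91.0% for Ncor1, 76.0% for Ppara and 75.4% for Ebf2, and 1.33% for Rxra.

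Split by source, batch took 91.0% of the variance of Ncor1, 76.0% of that of Ppara and 75.4% of that of Ebf2. The median over all genes tested was 17.9%. The 6 groups took most in Rxra, 47.5%, and in Klf15, 42.1%, beside a median of 25.0% over all genes, while batch took 1.33% and 2.52%. For Pparg 66.6% of the variance lay with neither, beside a median of 41.1%, and the residual SD was 0.48 on the log2 scale. Ncor1 had the smallest residual SD, 0.10.

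The levels of some members went together between libraries after the batch means were removed. The correlations that follow are across 24 libraries that share tissue, groups and scaling, and are given as descriptions. Rxra and Ebf2 had r = 0.88, Pparg and Rxra 0.84, and Pparg and Ebf2 0.83. Without control female replicate 1 these were 0.83, 0.69 and 0.74. Pparg and Cebpa, which maintain each other in fat cells, had r = 0.64, and 0.40 without control female replicate 1. Rxra and Cebpa fell from 0.57 to 0.26 without that library. Klf15, Cebpb and Cebpd had r between -0.31 and 0.03 with Pparg. Cebpb and Cebpa had r = 0.44, and 0.62 without control female replicate 1.

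Those 4 members also had the highest r with the mature adipocyte sum. Rxra had r = 0.88 with it, Ebf2 0.85, Pparg 0.83 and Cebpa 0.71. Without control female replicate 1 these were 0.76, 0.78, 0.67 and 0.52. Rxra and Ebf2 followed the endothelial sum as closely, with r = 0.89 and 0.85. Ncor1 had r = 0.52 with the adipocyte sum, and Ppara and Ppard 0.31 each. Klf15 had r = -0.32 with it and 0.48 with the stromal progenitor sum.

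**Figure D5:**
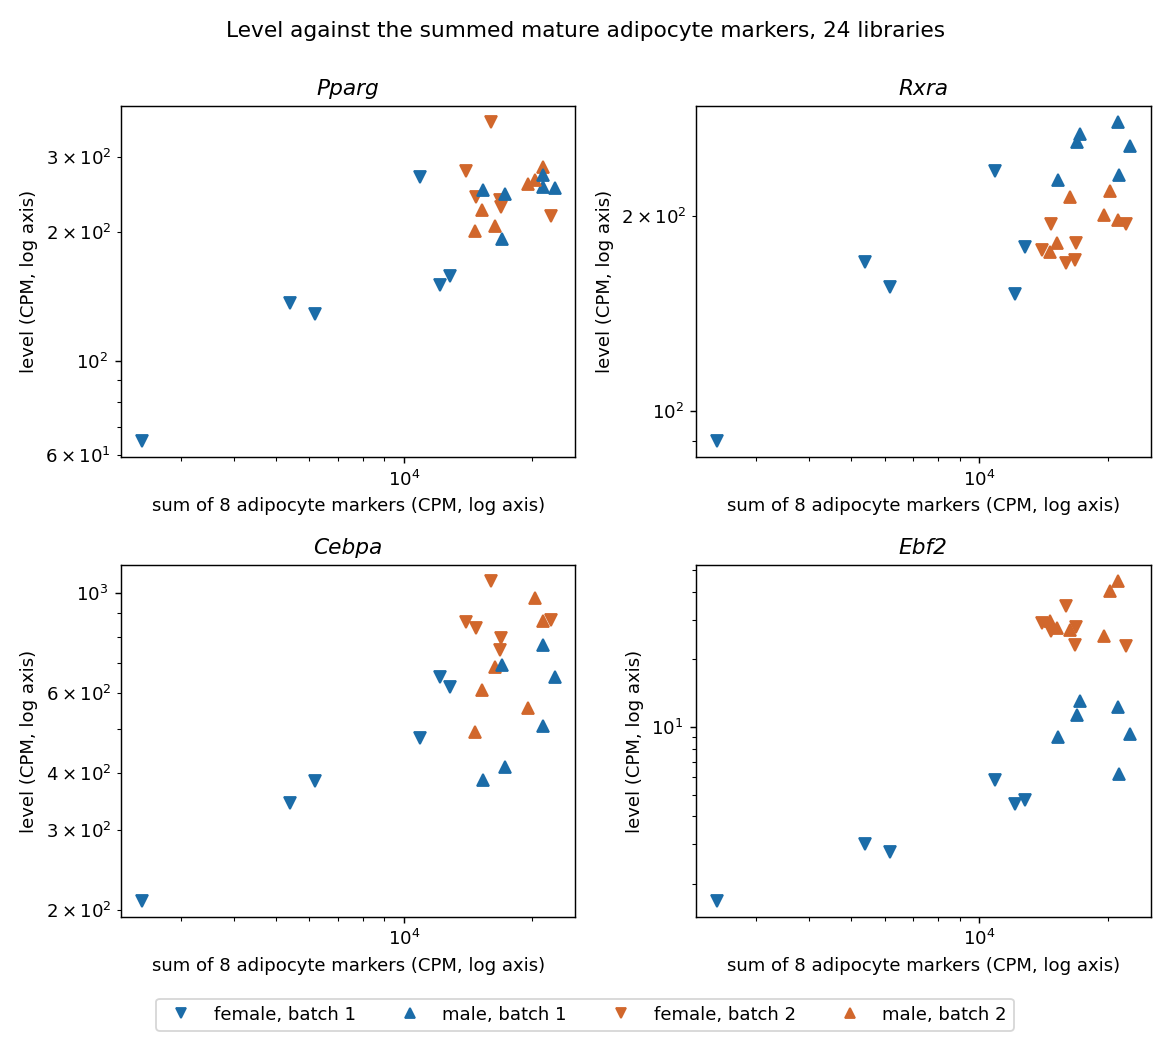
Level of Pparg, Rxra, Cebpa and Ebf2 (vertical axis, CPM, log scale) against the summed level of 8 mature adipocyte markers (horizontal axis, CPM, log scale) in 24 libraries. Triangles point up for males and down for females, and colour gives the batch. The 6 batch 1 females lie lowest in the marker sum, from 2426 to 12817 CPM, and Ebf2 forms 1 band per batch.

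For each member, the 3 genes with the most similar batch-centred profile were taken among 12572 genes. For Pparg they were Tmem243 (r = 0.96), Ginm1 (0.95) and Ywhag (0.95), with r = 0.93, 0.90 and 0.91 without control female replicate 1. Rxra was closest to Serpina3c (0.92), Aoc3 (0.92), an amine oxidase abundant in adipocytes, and Stx2 (0.92). Ebf2 was closest to Sort1 (0.94), the sortilin gene, to Aoc3 (0.93) and to Cav2 (0.93), a caveolin. The genes closest to Cebpa included Ppp1r9b (0.93) and Cat (0.90), the catalase gene. Without control female replicate 1 the genes named for Rxra, Ebf2 and Cebpa had r from 0.84 to 0.95. The profiles of these 4 members were thus matched closely by several genes.

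The other members had looser neighbours. The top r was 0.73 for Ppara with Acer2, a ceramidase gene, 0.68 for Ppard with Pdxp, and 0.75 for Ncor1 with Gtf2h1, a subunit of TFIIH. It was 0.81 for Cebpb with Lctl and 0.75 for Cebpd with Ephx1, an epoxide hydrolase gene. For Klf15 it was 0.82 with Rbm38, followed by Mxd1 (0.79) and Lncbate1 (0.77), a long noncoding RNA of brown fat.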

How the data were processed

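RNA from 24 samples of visceral fat was sequenced, in 6 groups of 4. The authors deposited raw counts per gene and a table of log2 FPKM. Counting with featureCounts, use of limma and the build GRCm38 (mm10) come from the submitters' processing notes, while the aligner and the annotation were not given in the sources used here. The test used the counts as deposited, and the log2 values of the authors served as an alternative. Genes without a symbol, 1029 of 27179, held 0.337% to 0.570% of counts.

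Genes that passed edgeR's filter on low counts (17824) were scaled by TMM and fitted by edgeR 4.0.16 (R 4.3.3) with a robust quasi-likelihood model of 6 groups and batch, which left 17 residual degrees of freedom. Alternatives used DESeq2 1.42.0, limma 3.58.1, other filters, scalings and batch terms, each batch alone, and fits without each library. Levels per length used merged exons of GENCODE. Likeness was Pearson's r of batch-centred log2 CPM (prior count 2), among genes whose log2 CPM averaged 1 or more.

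All 10 members are named, as are up to 3 called genes of each list with the smallest adjusted p, and up to 3 of the genes most like each member. A gene that ranked among these is not reported here. The members, lists and rules were chosen with earlier results of these data known. The test of the sex difference between batches was added after seeing the data. So were the fits without the 8 libraries whose epithelium marker sum was above 100 CPM.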

Additional observations from a re-analysis of the deposited data

Results flagged for a closer look

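In 4 of the 60 sets of 4 libraries (10 genes in 6 groups), 1 library lay far from the other 3. For 4 draws from the same normal distribution, chance flags about 1 set in 20. Each set here spans both batches, and the sets share libraries, so that rate is only nominal. Control female replicate 1 was such a library for Ppard, at 29.3 CPM against 38.2 to 39.1 CPM in the others. It was so for Rxra as well, at 89.8 CPM against 169 to 177 CPM. Its mature adipocyte sum, 2426 CPM, was the lowest of all libraries, and its epithelium marker sum, 1056 CPM, the highest. TbetKO male replicate 2 stood apart for Cebpb, at 66.3 CPM against 35.1 to 36.5 CPM. PpargKO female replicate 1 stood apart for Cebpd, at 40.8 CPM against 14.8 to 17.9 CPM.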

How the results depend on the processing

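Of 110 comparisons of a member between groups, 1 was called, 10 were called under at least 1 alternative, and 72 changed sign under at least 1. Of the 60 between knockouts or knockouts and controls, 1 was called under an alternative, Cebpa in TbetKO females with batch 1 alone. With batch 2 alone the Cebpa value there was -0.249, and in control males against females Pparg was at -0.4421 and Cebpa at -0.2108. The causes of these changes were not tested.

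In control males against females, members called numbered 2 with DESeq2, 2 with a batch term in each sex, 5 with batch 1 alone, 0 with batch 2 alone, 0 with voom, 2 with log2 FPKM, 0 with only the groups compared, and 0 to 2 on leaving out a library. In PpargKO they numbered 1 with DESeq2 and 1 with a batch term in each sex. In TbetKO they numbered 1 with only the groups compared and 2 without the 8 libraries above the epithelium marker cut-off. For any difference among groups they numbered 4 with DESeq2, 2 with a batch term in each sex, 4 with batch 1 alone, 2 without those 8 libraries, and 0 to 1 on leaving out a library. For the sex difference between batches, leaving out a library gave 1 to 4 members, in fits that called 2158 to 4305 genes. For any difference among groups, genes called ran from 1639 to 6787 across alternatives, and those of the sex comparisons are given below. The share of all genes in each single fit is not set beside its member count, so none of these counts is read as unusual.

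Deviations of same-numbered libraries of different groups had r from -0.24 to 0.44 for numbers 1 and 3 and from -0.28 to 0.18 for 2 and 4. They were taken from means of 2 libraries, so numbers 1 and 3 mirror each other, as do 2 and 4. The check therefore cannot decide whether the numbers pair libraries. By the titles, replicates 1 and 2 of a group share an index, as do 3 and 4, and pairing by that index was not tested. With the replicate number as a block, 1 member was called in control males against females and 0 in the knockout comparisons. Over all genes that block called 128 in TbetKO females, against 218 without it. Across alternatives the genes called there ran from 28 to 1238, with 33 to 131 on leaving out a library, in PpargKO females from 0 to 368 (3 with all libraries), in control males against females from 1307 to 5936 (4848), in PpargKO males against females from 53 to 2803 (1564) and in TbetKO males against females from 433 to 2856 (1659).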
